A study of Mus musculus with 68 samples.

Results

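The wild-type (WT) ventral tegmental area (VTA) dopamine neurons of this series are 35 single cells of the 68 that were sequenced. They were taken as the cells whose labels begin with WT, so no expression value was used to choose them here. The other 33 cells came from 3xTg mice and enter none of the values below. Each library was made by Patch-seq, in which the contents of a neuron are drawn into the recording pipette after a patch-clamp recording in a brain slice and the RNA is then sequenced.

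The WT mice were 12 months old, of both sexes, and came from a line without the 3xTg transgenes, kept on the same mixed C57BL/6 and 129 background. The study names position and electrophysiological criteria for its VTA dopamine neurons, but for these cells recorded only the tail current before extraction, and kept cells positive for Th, Slc6a3 and Slc18a2 and negative for Pvalb, Tmem119, P2ry12 and Aldh1l1. Presence of the first 3 genes is therefore a condition of entry and not a result. Neither the labels nor the methods say which mouse or sex a cell came from, so the 35 cells were treated as 1 sample. No test was made, an SD describes the spread of cells, and cells of the same mouse cannot be told apart from cells of different mice.

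Dopamine neurons of the VTA lie in the midbrain and project to the nucleus accumbens, prefrontal cortex and amygdala, where dopamine release is tied to reward and learning. They make dopamine from tyrosine through tyrosine hydroxylase and aromatic amino acid decarboxylase, load it into vesicles with the vesicular monoamine transporter and recover it with the dopamine transporter. They fire by themselves at a slow rate, which is set by sodium, calcium, potassium and leak channels, and they are known to differ from one another in peptides, calcium-binding proteins and enzymes.

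The total estimated count per WT cell was 492505 at the lowest, 982390 at the median and 1327367 at the highest. The label numbers of the WT cells fall into runs of 1 to 22 (17 cells), 57 to 74 (15 cells) and 94 to 96 (3 cells). In all 68 columns a second number of the label equals the place of the first in a grid of 8 by 12, and what the numbers mark is not stated. Counts of cells are given by run in that order, such as 14, 15 and 3. Median totals were alike in the runs (977795, 989535 and 885741), while the median number of genes with a count of at least 1 was 5233, 8441 and 6216. The ranges of that number were 3770 to 9459, 5198 to 10039 and 4273 to 8029, so the runs overlapped, and the ratio of the medians of 57 to 74 over 1 to 22 was 1.61. After each of 31 cells was thinned to 681280 counts, with 4 shallower cells left out, the ratio was 1.68. Of the 4 genes the study used to leave cells out, Aldh1l1 had no count in any of the 35, P2ry12 had a count in 3 cells, Pvalb in 2 and Tmem119 in 1, and 30 cells had no count of any of them.

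The 3 defining genes were counted in all 35 cells, as the choice of cells required. Levels are given as CPM, counts per 1000000 counts of a cell. Plain CPM is a share of counts that favours long transcripts, so levels of different genes are compared per kilobase of exon. Th, the rate-limiting enzyme of dopamine synthesis (mm10 chr7:142892776-142899966, minus strand), had 2297 CPM in the lowest cell, 6594 at the median and 11075 in the highest. Its medians by run were 6122, 6851 and 4733 CPM. Slc6a3, the dopamine transporter (chr13:73536747-73578672, plus strand), ranged from 448 to 8422 CPM with a median of 3887, and its run medians were 4663, 3662 and 3096. Slc18a2, the vesicular monoamine transporter (chr19:59260878-59296012, plus strand), had a median of 2344 CPM and a highest value of 6148. Its lowest cell, WT 11, held 11.4 CPM from 8 counts, and the next lowest cell held 438. Per kilobase, the mean levels were 2716 CPM for Th, 1146 for Slc6a3 and 634 for Slc18a2. Across the 35 cells the log2 levels of Th and Slc6a3 had a Pearson r of 0.52 and a Spearman rho of 0.49, with r of 0.40 in cells 1 to 22 and 0.67 in cells 57 to 74. Both values of a cell come from the same library and share its total.

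The other enzymes of dopamine handling were unevenly counted. Ddc, the decarboxylase that makes dopamine, averaged 1650 CPM, with 8.12 CPM in WT 96 and at least 279 in every other cell. Maoa, a monoamine oxidase, was counted in all 35 cells at a mean of 242 CPM, whereas Maob, its close relative, had a count in 13 (3, 10 and 0). Gch1, which begins the synthesis of the cofactor of tyrosine hydroxylase, had a count in 22 cells (9, 13 and 0). Qdpr and Spr, which regenerate and complete that cofactor, had a count in 29 and 20 cells.

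Of 12 transcription factors of midbrain dopamine neurons, 3 reached 80% of cells (25%, against 12.7% of all protein-coding genes). No count was found for 1 (8.33%, against 31.2%). Of the 3, 2 hold a run of bases shared with many other genes, as described below, and 1 of these was counted in every cell. Nr4a2, needed for the dopaminergic phenotype, was counted in 34 cells and En1 in 32 (14, 15 and 3). Satb1 was counted in 25 cells, Lmx1a in 23, Foxa1 in 10, Foxa2 in 6 and Pitx3 in 5. Lmx1b had a count in none of the 35, which allows a share of cells with a count of up to 8.57% if cells are taken as independent draws. That limit does not bear on the share of cells that express the gene.

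The 20 genes that took the largest mean share of counts, in plain CPM, joined nuclear noncoding RNAs, dopamine genes and general neuronal and cellular genes. Malat1, a nuclear long noncoding RNA, took the largest share at a mean of 25758 CPM (SD 21330 across cells), with a median of 19703 and a highest value of 81164. In WT 20 it was at 17.3 CPM, while every other cell held at least 4002. The ubiquitin gene Ubb stood at 13552 CPM (3070 to 31723). The noncoding RNAs Snhg11, Meg3 and Kcnq1ot1 averaged 9973, 7249 and 4941 CPM.

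Run medians of several of these genes lay far apart. Malat1 had run medians of 10161, 23449 and 40689 CPM, Snhg11 of 1326, 10852 and 15193, and Meg3 of 2896, 7083 and 11613. Kcnq1ot1 was highest in the middle run at 1520, 5937 and 2509 CPM, and the noncoding 2900097C17Rik was lowest in the last at 2456, 2536 and 1255. Hspa8, a constitutive chaperone, had run medians of 6398, 3943 and 2884 CPM, and Ubb of 15296, 11310 and 9744. Cells of all runs overlapped for each of these genes in the plot of the most abundant transcripts.

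**Figure D1:**
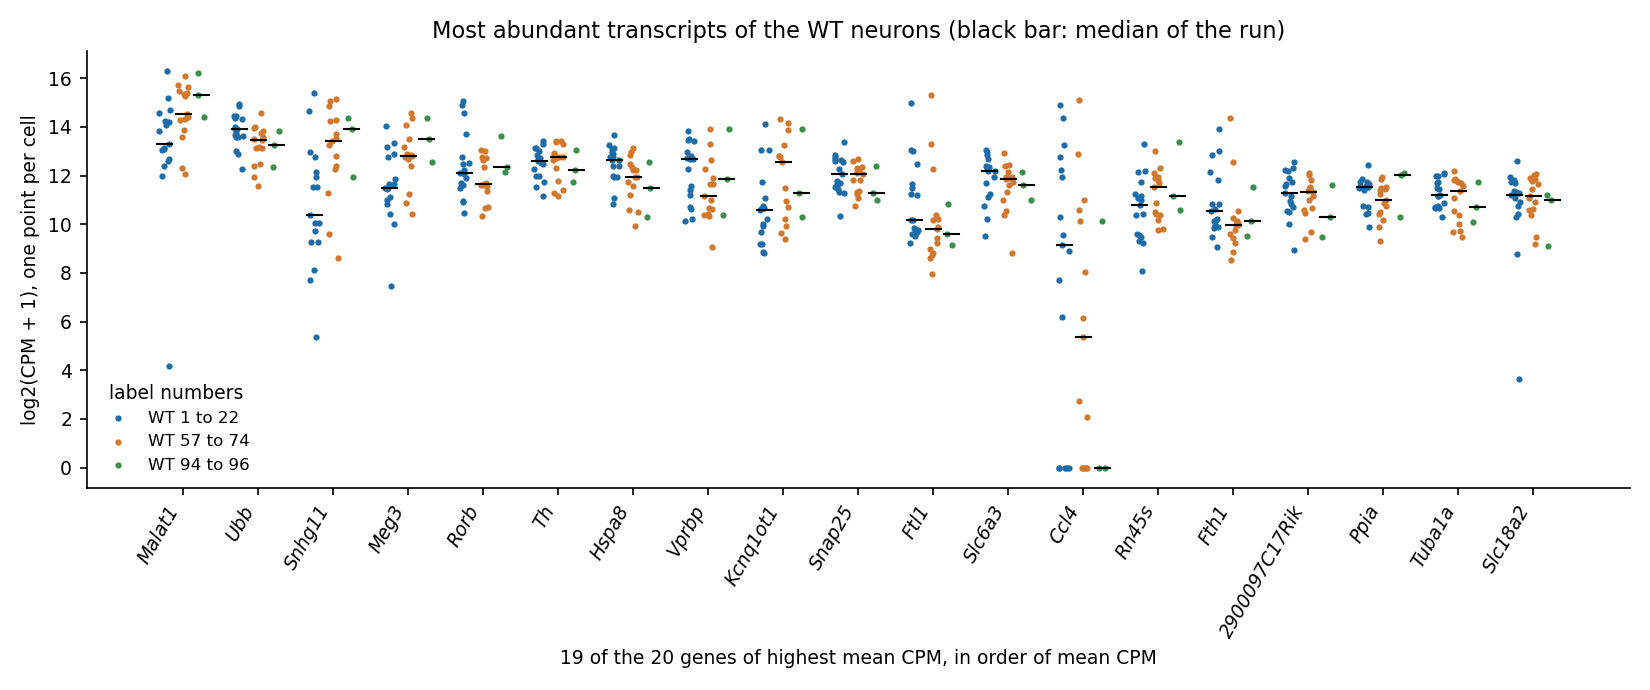
Each point is 1 WT cell; the vertical axis is log2(CPM + 1) and the horizontal axis lists 19 of the 20 genes of highest mean CPM in that order, with colours for the 3 runs of label numbers and a black bar at each run's median. Th and Snap25 form tight columns, Malat1 has a single low cell at 17.3 CPM, and Ccl4 runs from 0 to 35591 CPM.

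Further down the list stood Snap25, a fusion protein of the synapse, at 4317 CPM (1307 to 10620), and Tuba1a, a neuronal tubulin, at 2516. A few genes reached the list through a minority of cells. Ftl1, the ferritin light chain, had a mean of 4034 CPM but a median of 951 and a highest value of 40488, and Fth1, the heavy chain, a mean of 2765, a median of 1119 and a highest value of 20927. Ccl4, a chemokine that microglia and other immune cells make, averaged 3702 CPM with a count in 23 of 35 cells. Its median was 207 CPM and its mean without WT 72 was 2764, and by run its means were 4714, 3220 and 376. Ranking by median CPM left 16 of the 20 genes in place, and ranking by CPM per kilobase left 11. Per kilobase the genes ahead of Th included Ubb at 9040, Ccl4 at 5609, Snurf at 5119, Ftl1 at 4168 and Malat1 at 3689 CPM.

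Of the 36172 rows of the table, 16595 had a count of at least 1 in some WT cell and 861 had one in every WT cell. By run, 1023, 1953 and 2797 genes were counted in every cell, over 17, 15 and 3 cells. The 861 genes held 35.7% of a cell's counts at the median (31.9% to 46.3%). Among 22013 protein-coding genes, 791 were counted in every cell (3.59%), 2803 in at least 80% of cells (12.7%) and 6872 in none (31.2%). These shares are the background for the lists below.

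Genes counted in every cell included some with low counts everywhere and a known role outside neurons. Kcnj15, an inward rectifier known from kidney and epithelia, had 4.03 counts in the lowest cell, 13 at the median and 51.1 in the highest, and Kcnj1, the kidney potassium channel, had 1, 5.5 and 17. Their transcripts, and those of most genes counted in every cell, hold a run of 25 bases that many other genes' transcripts also hold. The following stretches show 7 of them, chosen after their values were seen because they show the kinds of run found. The 25 shared bases are in capitals, with 2 bases before and 3 after, read 5′ to 3′ on the strand of the gene from the mm10 sequence, and all lie in a 3′ UTR.
Kcnj15: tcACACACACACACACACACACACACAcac
Npy1r: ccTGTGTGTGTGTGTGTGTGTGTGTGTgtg
Kcnk3: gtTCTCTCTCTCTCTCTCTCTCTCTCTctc
Scn2b: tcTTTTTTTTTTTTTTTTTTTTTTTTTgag
Lepr: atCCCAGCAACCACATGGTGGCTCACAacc
Spc24: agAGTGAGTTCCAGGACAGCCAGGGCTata
2610028H24Rik: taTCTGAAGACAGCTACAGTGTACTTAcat

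The runs in Kcnj15 (chr16:95298169-95298193, plus strand) and Npy1r (chr8:66705409-66705433, plus strand) are repeats of a pair of bases held by 661 and 651 other genes. Those in Kcnk3 (chr5:30623248-30623272, plus strand) and Scn2b (chr9:45128678-45128702, plus strand) are a further such repeat, held by 269 others, and a run of T held by 157. The runs in Lepr (chr4:101811906-101811930, plus strand), Spc24 (chr9:21755681-21755705, minus strand) and 2610028H24Rik (chr10:76461037-76461061, plus strand) have no short period and are held by 145, 175 and 66 other genes.

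A run of 25 bases was called shared where at least 30 other genes held it on the same strand, 1 transcript being read per gene. Of the 846 genes counted in every cell that had a transcript, 572 held a shared run (67.6%), against 3053 of the other 15493 genes counted (19.7%). Among genes with a mean normalized count of at least 10, the shares were 67.7% and 20.9%. The shares were higher for longer transcripts in both groups, from 24.3% and 7.80% in the shortest of 4 length classes of equal size to 89.5% and 36.5% in the longest. The run lay in the 3′ UTR for 520 of the 572 genes (90.9%). It was a repeat of 2 bases for 226 of them, of 1 base for 40, and had no period of up to 4 bases for 293. Whether reads of other transcripts enter the counts of such genes was not tested, and a count of a gene with a shared run is marked as such below. Of the 20 genes of highest mean CPM, 8 hold one, among them Malat1, Snhg11, Meg3, Rorb, Vprbp, Kcnq1ot1 and Snap25, as do the transcription factors Nr4a2, Satb1, Lmx1a and Lmx1b.

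The summed CPM of the every-cell genes with a shared run took 8.72% to 31.5% of a cell's counts, with medians by run of 14.6%, 16.1% and 22.4%. Across the 35 cells this share had a Pearson r of 0.66 and a Spearman rho of 0.78 with log2 CPM of Malat1, and r was 0.60 and 0.83 in the runs of 17 and 15 cells. Without the 2 cells of most extreme Malat1 level, r was 0.74 over all cells, and 0.46 and 0.91 in these runs. Malat1 holds a shared run and is itself in the summed share, so part of the correlation was fixed in advance. Both values are also parts of the same total.

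Of 158 ion channel genes, 27 were counted in at least 80% of cells (17.1%, background 12.7%), 55 in 20% to 80%, 58 in fewer and 18 in none (11.4%, background 31.2%). By run, 22, 39 and 24 reached 80% of cells (13.9%, 24.7% and 15.2%), against 10.3%, 19.8% and 11.6% of all protein-coding genes. All 9 channels counted in every cell held a shared run (Kcna2, Kcnc1, Kcnj1, Kcnj10, Kcnj15, Kcnj16, Kcnk3, Scn2b and Slc12a5). Of the channels with a shared run, 17 of 41 reached 80% of cells (41.5%), against 10 of 117 without one (8.55%). For all protein-coding genes these shares were 36.1% and 7.46%. At a count of at least 10, 9 channels reached 80% of cells (5.70%, background 6.24%).

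Potassium channels that slow firing were counted in part of the cells. Kcnn3, the small-conductance calcium-activated channel SK3, had a count in 22 cells (9, 11 and 2), from 0 through a median of 20.7 to 438 counts. Kcnn2, which encodes SK2, had a count in 13 (5, 8 and 0), and Kcnn4 in none. Kcnn1, which encodes SK1, was counted in 31 cells (15, 14 and 2) but at a median of 4.33 counts and with a shared run. Of the A-type complex, which delays the next spike, the pore gene Kcnd3 was counted in 27 cells (13, 12 and 2) at a mean of 107 CPM and Kcnd2 in 6. Its partners Kcnip4 and Dpp6 were counted in 30 (13, 15 and 2) and 28 (12, 13 and 3) at means of 380 and 167 CPM. Kcnj6 and Kcnj9, subunits of the channel that G-protein-coupled receptors open, had a count in 17 (5, 11 and 1) and 18 cells. Kcnj11, the pore of the ATP-sensitive channel, had a count in 2.

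Of 13 voltage-gated sodium channel genes, 6 reached 80% of cells, 3 of them with a shared run, while 4 were counted in fewer than 20% and 1 in none. Scn3a, Scn8a and Scn9a, pore subunits of sodium channels, were counted in 30, 32 and 28 cells, and Scn2a1 in 33 with a shared run. The accessory subunits Scn2b and Scn3b, both with a shared run, were counted in 35 and 34 cells, Scn2b at 12.2 CPM in the lowest, 337 at the median and 1256 in the highest. Nalcn, the sodium leak channel, had a count in 13 cells (5, 7 and 1), whereas its partner Unc80 had one in 28 (12, 14 and 2) at a mean of 217 CPM. Of the hyperpolarization-activated channels, Hcn3 had a count in 5 cells, Hcn4 in 3 and Hcn2 in 2.

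No voltage-gated calcium channel gene reached 80% of cells. Cacna1a was counted in 25, Cacna1e in 23, Cacna1d, the pore linked to pacemaking, in 14 (5, 7 and 2) and Cacna1g in 12. Clcn3 and Clcn4-2, chloride exchangers of vesicles, were counted in 33 and 31 cells at means of 331 and 240 CPM. Slc12a5, the neuronal chloride exporter, was counted in every cell with a shared run.

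**Figure D2:**
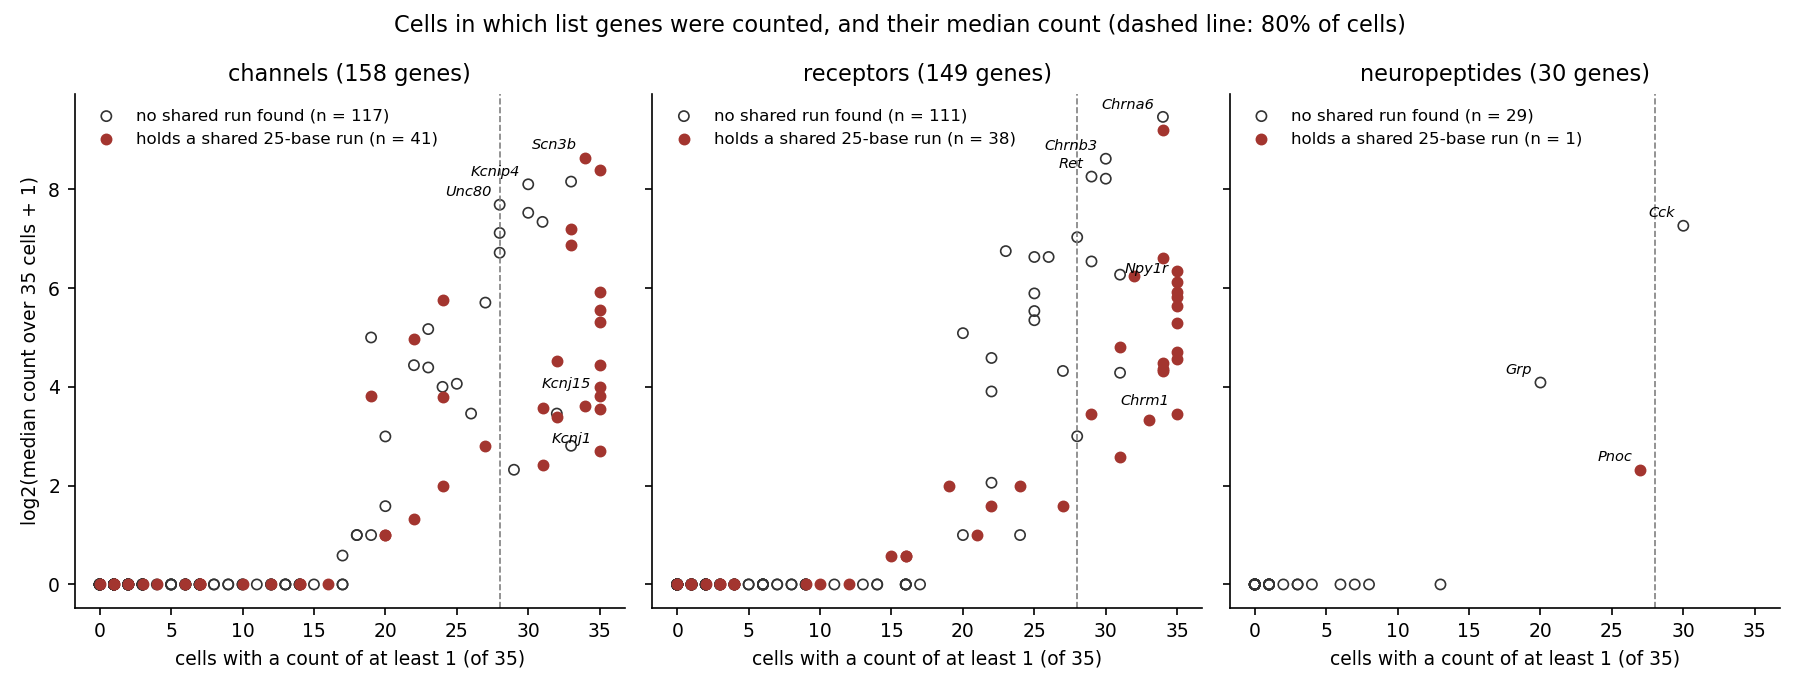
Each point is 1 gene of the channel, receptor or neuropeptide lists; the horizontal axis is the number of the 35 WT cells with a count of at least 1, the vertical axis log2(median count + 1), and the dashed line 80% of cells. Filled points hold a shared 25-base run, and all 9 channels and all 9 receptors at 35 cells are filled, while Chrna6, Chrnb3, Kcnip4 and Cck lie right of the line unfilled.

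Of 149 receptor genes, 28 were counted in at least 80% of cells (18.8%, background 12.7%), 41 in 20% to 80%, 42 in fewer and 38 in none (25.5%, background 31.2%). By run, 22, 40 and 27 did (14.8%, 26.8% and 18.1%, beside the same run backgrounds of 10.3%, 19.8% and 11.6%). The 9 counted in every cell all held a shared run (Grin2b, Chrna1, Chrm1, Tacr1, Npy1r, Adcyap1r1, Lepr, Insr and Gfra2). At a count of at least 10, 12 receptors reached 80% of cells (8.05%, background 6.24%). Of receptors with a shared run 19 of 38 reached 80% of cells (50.0%), and of those without one 9 of 111 (8.11%).

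Nicotinic acetylcholine receptor subunits made up 4 of those 9. Chrna6, a subunit of the receptors that dopamine neurons are known for, was counted in 34 cells (17, 14 and 3), at 0, 744 and 2034 CPM in the lowest, median and highest. Chrnb3, its frequent partner, was counted in 30 (13, 15 and 2) at a mean of 539 CPM, and 29 cells held both. Chrna5 was counted in 31 cells (14, 14 and 3) and Chrna2 in 28. Per kilobase the mean level was 263 CPM for Chrna6 and 84.7 for Chrnb3. Chrna4, Chrna3, Chrnb2 and Chrna7 had counts in 25, 16, 14 and 5 cells.

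Receptors for fast transmitters came next. Gria1, an AMPA receptor subunit, was counted in 31 cells, and Gria2 in 34 at a mean of 603 CPM with a shared run. Grin1, the obligate NMDA receptor subunit, had a count in 16 (4, 11 and 1). Of 24 GABA-A and glycine receptor genes, 3 reached 80% of cells (12.5%, near the background of 12.7%), and by run 1, 7 and 2 did. Among the 3 was Glrb, the anchoring subunit of the glycine receptor, counted in 30 cells at a mean of 369 CPM.

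Of 35 monoamine, muscarinic and cannabinoid receptor genes 3 reached 80% of cells, all with a shared run, and of 46 peptide and hormone receptor genes 9 did, 8 of them with a shared run. Drd2, the autoreceptor for dopamine, had a count in 13 cells (3, 9 and 1) at a mean of 25.9 CPM, Drd1a in 8, Drd3 in 1, and Drd4 and Drd5 in none. Oprk1, the kappa opioid receptor, was counted in 26 (9, 15 and 2) and Oprm1, the mu receptor, with a shared run, in 4. Ntsr1, the neurotensin receptor, had a count in 20 (8, 9 and 3). Ret, the receptor tyrosine kinase for glial-derived growth factors, was counted in 29 (13, 13 and 3) at a mean of 277 CPM, and its co-receptor Gfra1 in 14. Npy2r, Galr1, Sstr2, Crhr2, Cckbr and Mc4r had no count in any of the 35.

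Of 30 neuropeptide precursors, 1 reached 80% of cells, 5 were counted in 20% to 80%, 11 in fewer and 13 in none (43.3%, background 31.2%). Cck, the cholecystokinin precursor, was counted in 30 cells (15, 13 and 2) at 0, 136 and 1152 CPM in the lowest, median and highest. Grp, the gastrin-releasing peptide precursor, was counted in 20 (10, 9 and 1), of which 19 also held Cck. Pomc and Cartpt had a count in 13 (8, 4 and 1) and 7. The 13 without a count were Nts, Vip, Gal, Pdyn, Tac1, Tac2, Crh, Ucn, Oxt, Avp, Kiss1, Rln3 and Cort.

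Genes of peptide storage and processing were counted in more cells. Of 11 granins and processing enzymes, 9 reached 80% of cells (81.8%, background 12.7%), and by run 8, 9 and 4 did. Scg2, a secretogranin of dense-core vesicles, was counted in all 35 at a mean of 1905 CPM. Pcsk1n, Cpe and Pcsk2, which regulate or carry out precursor cleavage, were counted in 33, 32 and 32 cells, and Vgf in 8.

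Spread was measured as the SD over cells of log2(normalized count + 1), minus the median SD of the 200 genes nearest in mean level, over 8979 genes with a mean normalized count of at least 10. The size factors behind it came from 961 genes with a count above 0 in every cell, of which 657 hold a shared run. They did not rise with the total count (r −0.10, rho −0.21 over 35 cells, and r −0.23 and −0.29 in the runs of 17 and 15). Without the 2 cells of most extreme total, r was −0.32 over all cells, and −0.38 and −0.43 in these runs. With size factors from genes without a shared run, or with CPM, 15 of the 20 genes of largest excess were named again. The 20 genes of largest excess ran from 2.83 for Ccl4 to 1.15 for Cd83, and the next gene, Pja2, lay at 1.13. Th, Slc6a3 and Slc18a2 lay at −0.44, −0.30 and 0.04.

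**Figure D3:**
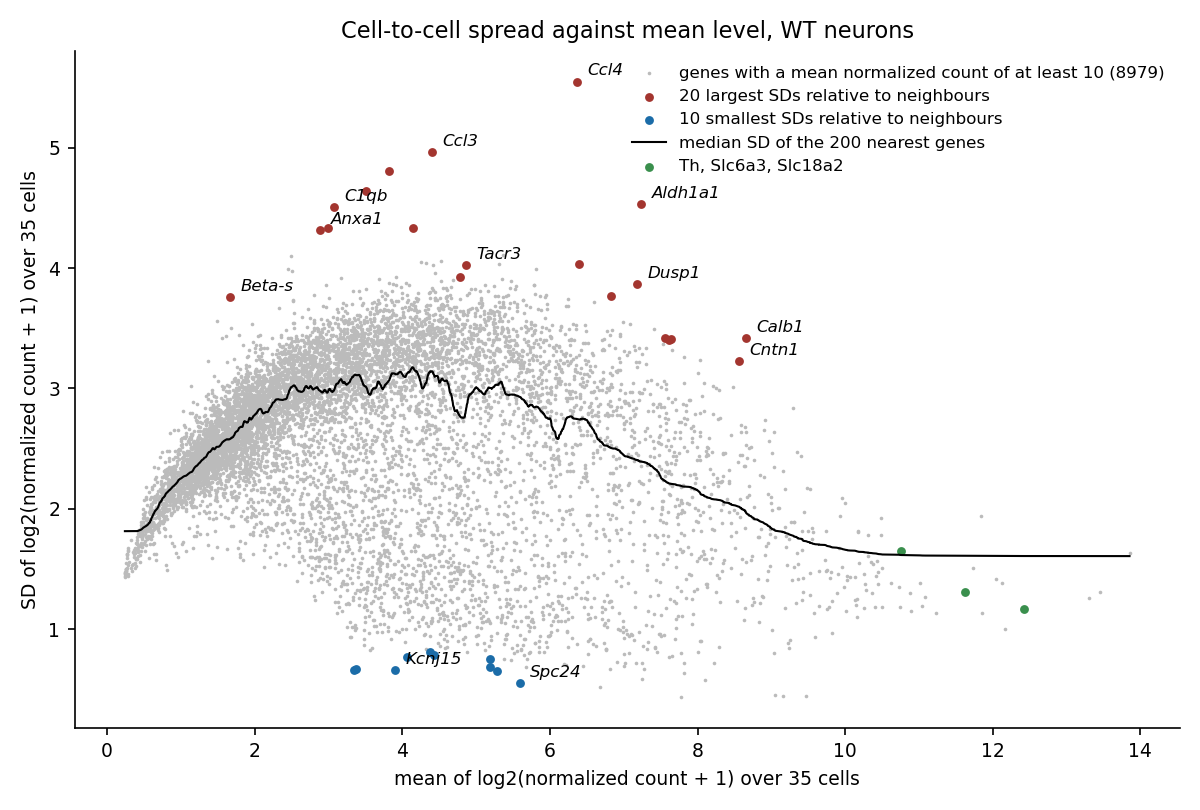
Each point is 1 of 8979 genes; the horizontal axis is the mean and the vertical axis the SD over the 35 WT cells of log2(normalized count + 1), and the line is the median SD of the 200 genes nearest in mean. Ccl4 and Aldh1a1 stand above the line by 2.83 and 2.16, Kcnj15 below it by 2.47, and Th, Slc6a3 and Slc18a2 close to it.

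One group among the 20 were subtype markers of dopamine neurons. Aldh1a1, a retinaldehyde dehydrogenase that marks ventral dopamine neurons, was counted in 27 cells (13, 13 and 1), at 0, 580 and 8612 CPM in the lowest, median and highest. Anxa1, an annexin, was counted in 14 cells (7, 7 and 0), reached 2528 CPM, and every one of the 14 cells also held Aldh1a1. The mean of Aldh1a1 was 1974 CPM in cells with Anxa1 and 652 in cells without, and the medians were 1022 and 143. WT 60 alone held 25.5% of the summed counts of Aldh1a1. The calcium-binding proteins Calb1 and Calb2 were counted in 33 (15, 15 and 3) and 28 cells (15, 10 and 3), with 26 holding both. Calb1 ran from 0 through 835 to 6691 CPM. Aldh1a1 averaged 925 CPM in the 28 cells with Calb2 and 2201 in the 7 cells without, with medians of 311 and 1034. Tacr3, the neurokinin B receptor, was counted in 23 (10, 12 and 1), but stayed among the 20 in only 2 of 11 other settings and in 16 of the 35 sets that left out 1 cell.

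Further subtype markers were not among the 20. Slc17a6, the vesicular glutamate transporter of midbrain neurons that co-release glutamate, had a count in 6 cells (1, 5 and 0), all of which held Aldh1a1. Otx2 had a count in 7 cells, of which 6 held Aldh1a1. Sox6 had a count in 5 cells, of which 3 held Aldh1a1. Aldh1a1 itself was counted in 77.1% of all WT cells, and in 13 of the 15 cells of the run 57 to 74. Whether these overlaps differ from that share was not tested. Ndnf was counted in 12 cells and Sncg, gamma-synuclein, in 31.

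Genes of immune cells were the other group. Ccl4, Ccl3 and Ccl5 are chemokines, Il1a a cytokine, C1qb a complement subunit, Ctss a lysosomal protease and Cd83 an activation marker of immune cells. They were counted in 23, 18, 15, 15, 13, 13 and 21 cells, and Cd83 stayed among the 20 in only 2 of 11 other settings. All 15 cells with Il1a, all 15 with Ccl5 and all 13 with C1qb also held Ccl4. All 7 genes were counted in 9 cells, at least 5 of them in 14 (8, 6 and 0), 1 to 4 in 14, and none in 7.

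Their levels were uneven. The summed CPM of the 7 was 0 in the lowest cell, 235 at the median and 79672 in the highest, WT 7, followed by WT 72 at 60509 and WT 11 at 26692. In WT 7, Ccl4 stood at 30231 CPM, Il1a at 18543, Ccl3 at 13407 and Cd83 at 10029, and Th at 3370. WT 7 held 61.2% of the summed counts of Il1a. Without it the mean of Il1a went from 902 to 383 CPM and that of Cd83 from 507 to 227. In WT 72, Ccl4 stood at 35591 CPM, Ftl1 at 40488 and Th at 6414. Across cells the log2 levels of Ccl4 had r of 0.85 and rho of 0.87 with Ccl3, with r of 0.80 in cells 1 to 22 and 0.94 in cells 57 to 74. With Ftl1, r was 0.77 and rho 0.78, and in the same runs r was 0.81 and 0.72 and rho 0.88 and 0.57. Without the 2 most extreme of cells 57 to 74, that r was 0.44. With Th, r was −0.29 and rho −0.30, and r was −0.52 and −0.13 in the 2 runs.

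Markers of microglia were given their values beside these genes, and their part in the result was not tested. Their summed level was 0, 50.0 and 3854 CPM in the lowest, median and highest cell, with run medians of 137, 30.4 and 24.1. Without the 1 marker that holds a shared run the median was 16.3 CPM, and 20 cells in place of 34 had a count. Of the defining genes, C1qa had a count in 9 cells, Aif1 in 12 (9, 2 and 1), Csf1r in 7 (7, 0 and 0), P2ry12 in 3 and Tmem119 in 1. Across the 35 cells their log2 sum had r of 0.71 and rho of 0.70 with that of Ccl3, Ccl4 and Il1a, and r was 0.70 in both larger runs. In cells 57 to 74, rho was 0.57 and r without the 2 most extreme cells was 0.46. In the 30 cells without a count of the study's 4 exclusion genes, 13 of the 20 genes of largest spread were named again.

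**Figure D4:**
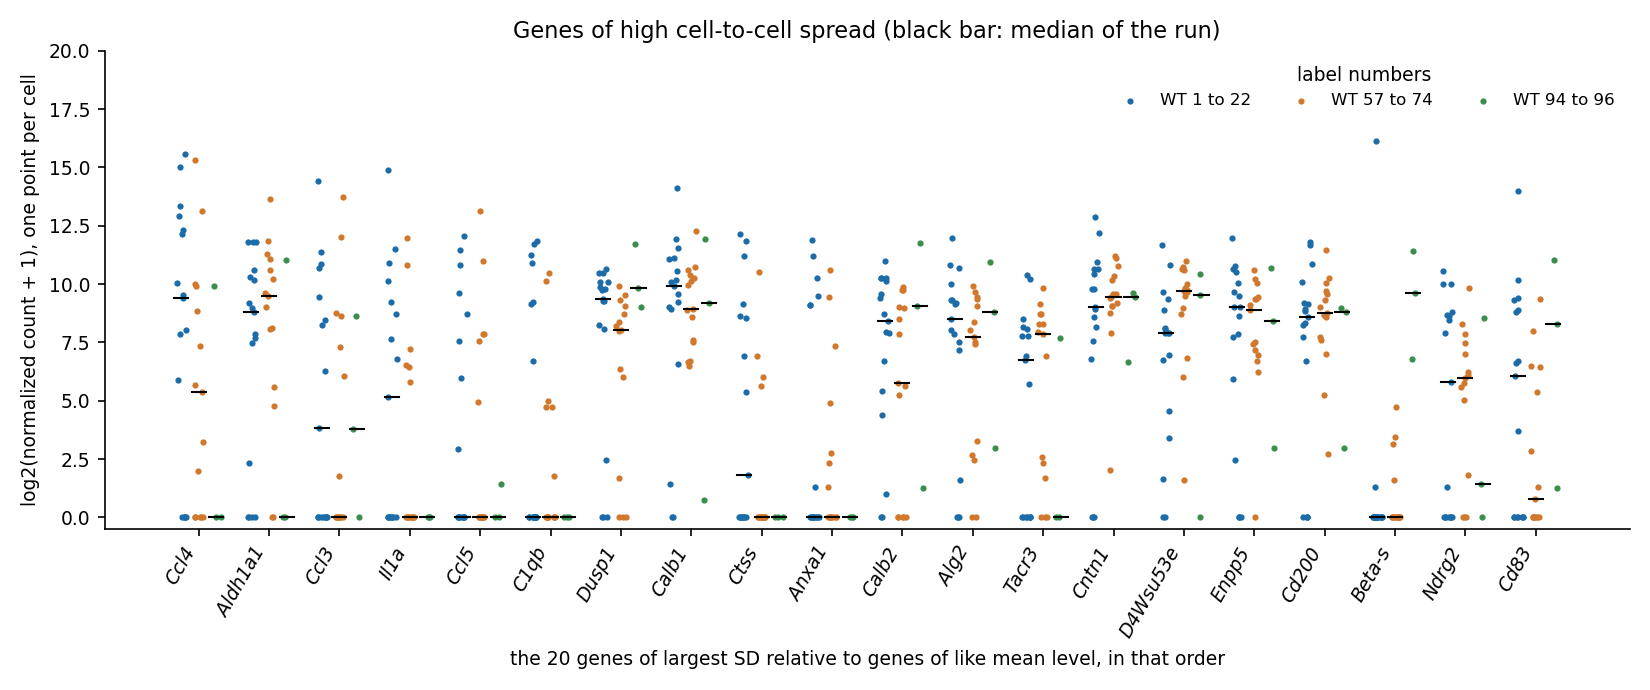
Each point is 1 WT cell; the vertical axis is log2(normalized count + 1) and the horizontal axis lists the 20 genes of largest SD relative to genes of like mean level, with colours for the 3 runs and a black bar at each run's median. Ccl4, Ccl3, Il1a and Aldh1a1 have cells at 0 and cells above 11 in the runs 1 to 22 and 57 to 74, and Beta-s has 1 cell far above the others.

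The remaining genes included a globin whose counts lay mostly in 1 cell. Beta-s, a beta-globin, was counted in 9 cells (2, 4 and 3), and WT 11 held 92.8% of its summed counts, so that its mean went from 1412 to 117 without that cell. The alpha-globin Hba-a1 was also highest in WT 11, at 66862 CPM. In WT 94, 95 and 96, Beta-s stood at 575, 178 and 3183 CPM and Hba-a1 at 595, 419 and 3367 CPM. The medians of both genes were 0 in the runs 1 to 22 and 57 to 74. Dusp1, an immediate early phosphatase, was counted in 29 (14, 12 and 3), and Cntn1, a neuronal adhesion protein, in 32. Ndrg2, counted in 24, stayed among the 20 in 1 of 11 other settings and in 4 of the 35 sets that left out 1 cell. In both runs of 15 or more cells taken alone, Ccl4, Ccl3, Ccl5, Il1a and Aldh1a1 were again among the 20, whereas 11 and 8 of the 20 were named again in cells 1 to 22 and 57 to 74.

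At the other end, the 10 genes of smallest excess depended on the size factors. With the factors above, Kcnj15 lay lowest at −2.47, with an SD of 0.66 on the log2 scale, and its run means on that scale were 4.02, 3.84 and 3.48. Fhl3, Cyp4a31, Mrgpre, Spc24, Il11, 4930556M19Rik, 2610028H24Rik, Il18r1 and Znrf3 followed, to −2.28, and all 10 held a shared run, as do most of the genes that set the factors. With size factors from genes without a shared run, 2 of these 10 were named again and 6 of the 10 lowest held a shared run. With CPM, 3 were named again and 8 held one. Nothing is therefore read from the link of small spread with shared runs.

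Summed markers of other cell types had medians of 0 without their genes that hold a shared run, except those of microglia. Astrocyte markers summed to 252 CPM at the median and 2679 in the highest cell, with Slc1a2 in every cell with a shared run and Aldh1l1 in none. Without shared-run genes their median was 0 and their highest value 2410 CPM, with a count in 13 cells. Oligodendrocyte markers summed to 57.8 CPM at the median and 2540 in the highest cell, with Mbp in every cell with a shared run and Mog in none. Without shared-run genes their median was 0 and their highest value 151 CPM, with a count in 14 cells. Markers of oligodendrocyte precursors and of endothelial and mural cells had a count in 8 and 7 cells, medians of 0 and highest sums of 9.03 and 2.47 CPM. Without shared-run genes the precursor markers had a count in 1 cell, at 1.01 CPM, and the endothelial and mural values stayed as they were, since none of these holds a run. For GABA neurons, Gad2 was counted in every cell with a shared run, while Gad1 had a count in 6. The sum of the GABA markers was 38.1 CPM at the median and 267 in the highest cell, and 0 and 219 without shared-run genes, with a count in 9 cells. Glutamate neuron markers summed to 8.26 and 763 CPM, and to 0 and 761 without shared-run genes, with a count in 8. Of the serotonin and noradrenaline markers, Slc6a2, the noradrenaline transporter, had a count in 31 cells with a shared run, Slc6a4, Fev and Dbh had no count, and Tph2 had one in 1 cell. Their sum was 5.49 CPM at the median and 122 in the highest cell, and 0 and 98.5 without shared-run genes, with a count in 1 cell.

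Genes of the Y chromosome differed between the runs. The labels give no sex, and the study used both. Eif2s3y, a Y-linked translation factor, had a count in 1 of 17, 12 of 15 and 1 of 3 cells, at 1 count in the first run and up to 494 and 118 in the others. Kdm5d, which holds a shared run, was counted in 0, 6 and 1 cells and Uty in 2, 11 and 2. At least 10 counts of Eif2s3y, Kdm5d or Uty were found in 0 of 17, 13 of 15 and 2 of 3. Ddx3y, which holds a shared run, had median counts of 4, 213 and 13. Xist, transcribed from the inactive X chromosome, was counted in 14, 15 and 3 cells at medians of 6, 11 and 5.33 counts. At 10 counts or more, 9 of the 35 cells held both Xist and at least 1 of Eif2s3y, Kdm5d and Uty, 5 held Xist alone of these, 6 a Y-linked gene alone, and 15 neither. The 9 cells with both were 0, 8 and 1 by run, and the 5 with Xist alone were all of the run 1 to 22. The runs therefore differ both in these genes and in the number of genes counted, and neither can be told apart from the other in a difference between runs.

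**Figure D5:**
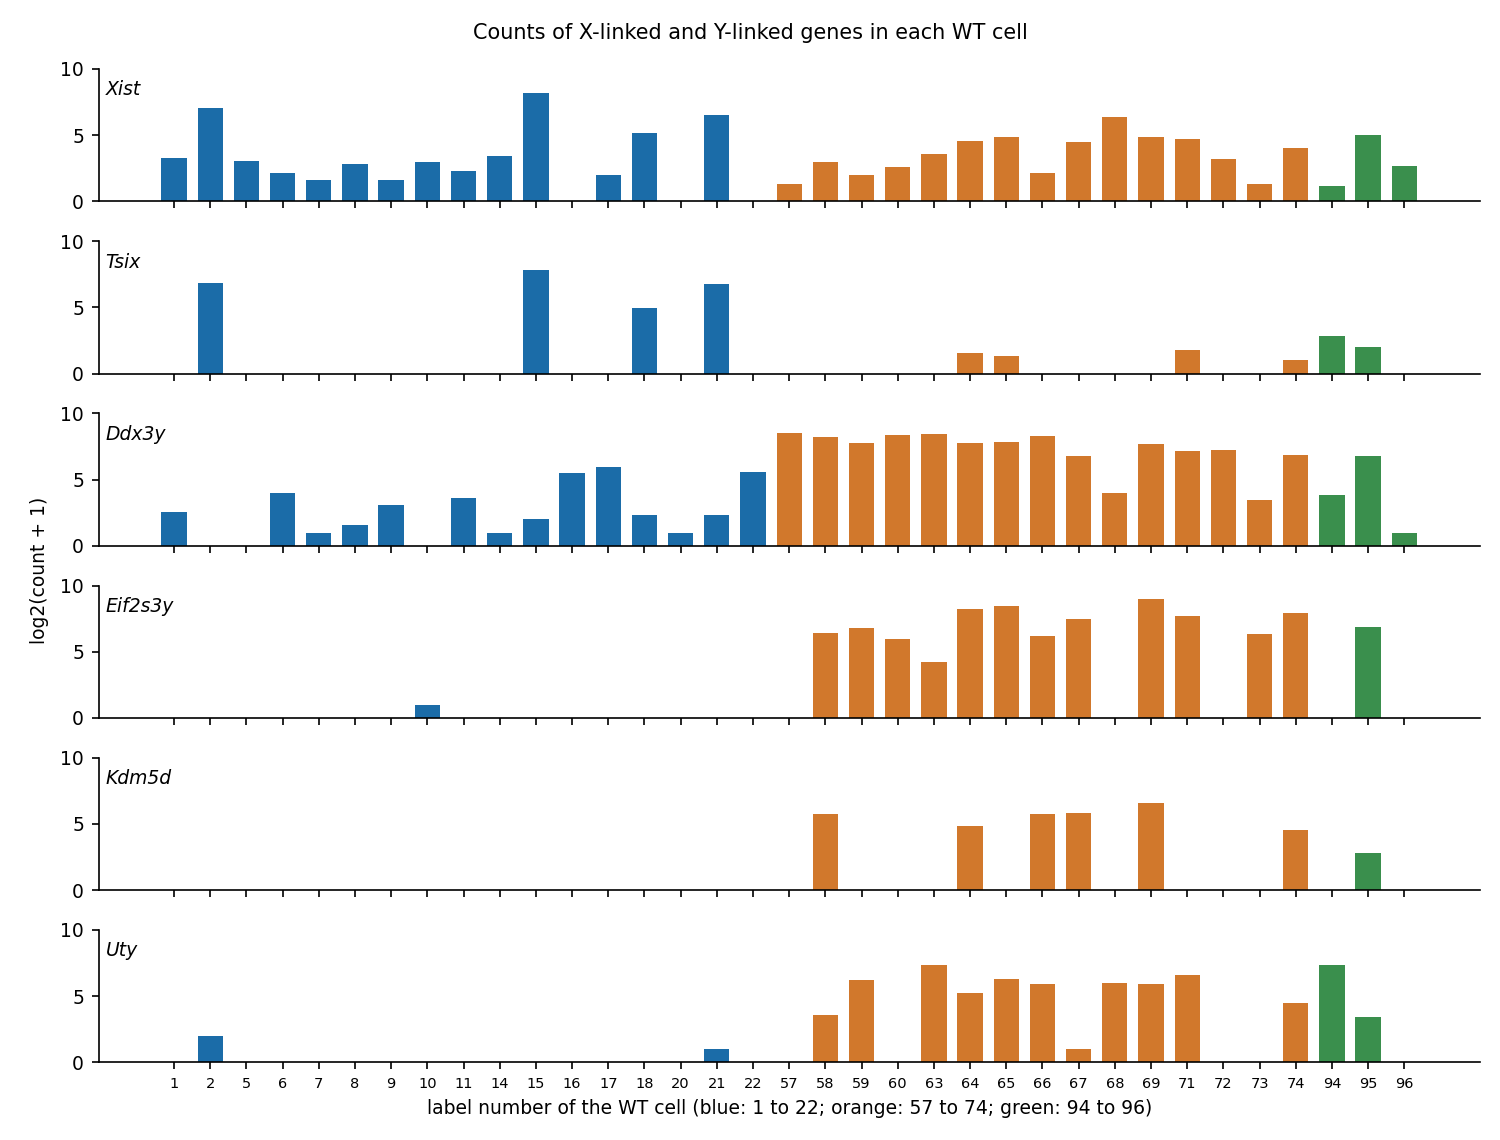
Bars give log2(count + 1) of 6 sex-linked genes in each WT cell, ordered by label number, with a panel per gene. Eif2s3y, Kdm5d and Uty have bars mostly in cells 57 to 74, Ddx3y is higher there, and Xist has low bars in cells of every run and its highest, 297 counts, in the run 1 to 22.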

How the data were processed

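RNA of 35 WT neurons was analysed. After adapter and quality trimming, the authors used Strand NGS for alignment against RefSeq transcripts of mm10, discarded duplicate reads and deposited an estimated count per gene (55.2% of WT counts above 0 were not whole, tolerance 0.001), beside log2 values that the authors normalized with the DESeq2 algorithm, shifted per gene, which were not used here. The totals, 492505 to 1327367, limit what a count of 0 can show.

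CPM was counts over the total of the cell. Size factors were the median of ratios over 961 genes with a count above 0 in every cell. Levels per kilobase used exon lengths from the reference annotation. A gene was counted at a count of at least 1 and present in at least 80% of cells, after the study's criterion. Shares and sums have exact intervals at 95% in the tables. Named genes were the 20 of highest mean CPM, 453 genes of 33 lists, and the 20 of largest and 10 of smallest relative spread. The members and lists were chosen with earlier results of these data known, and the shared-run rule after the data were seen. Shared runs were searched in GENCODE M21 transcripts, 1 per gene, for 31505 of 35793 symbols (88.0%). On simulated data with a wide set gap in spread, the spread measure found 197 of 200 genes given a raised spread among 8979. That gap was not taken from the WT cells, so the result checks the calculation and not its accuracy in these data. The run search found 40 of 40 planted runs. Alternatives were pseudocounts, count minimums, other levels and neighbours, thinning, single runs, genes without a shared run, cells without the 4 exclusion genes, and leaving out each cell. Some genes counted in these totals are not reported here by name. No cells were clustered and doublets were not called. Python 3.11.15, pandas 2.3.3, numpy 2.4.6, scipy 1.17.1 and matplotlib 3.10.9 were used.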

Additional observations from a re-analysis of the deposited data

How the results depend on the processing

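The number of genes counted in every cell, 861, was 284 at a count minimum of 10, 1953 in cells 57 to 74 alone, and 289, 369 or 348 without genes holding a 25-base run shared with at least 30 or 100 other genes, or a 31-base run. The 27 channels present became 9 at a minimum of 10 and 10, 10 and 12 without such genes, and the 28 receptors 12, and 9, 11 and 14. The 1 peptide became 2 in cells 57 to 74 alone. Of the 20 most abundant genes, 11 stayed when levels were per kilobase and 12 were not found to hold a shared run, of which Rn45s had no transcript to search. Of the 20 genes of largest spread, 6 stayed at a pseudocount of 0.1, 3 by the coefficient of variation, 11 and 8 in cells 1 to 22 and 57 to 74 alone, and 13 in cells without the exclusion genes. Of the 10 genes of smallest spread, 2 stayed with size factors from genes without a shared run and 3 with CPM. Leaving out each cell gave 861 to 926 genes, 24 to 27 channels, 26 to 28 receptors, 1 peptide throughout, 19 to 20 of the most abundant and 13 to 19 of the spread genes. The cause of these changes was not tested. No paired analysis was possible because only WT cells were described and no groups were compared. Poor counting of a lowly expressed gene and its absence cannot be told apart in a cell, so a gene without a count is not shown to be absent.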

Other observations

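Immediate early genes, which neurons switch on after activity and which handling of tissue can also raise, were counted unevenly. Fos was counted in all 35 cells with a shared run, at a median of 635 CPM and a highest value of 5089, and its run medians were 793, 635 and 439 CPM. Dusp1 had a count in 29 cells, Egr1 in 27, Jun in 23, Fosb in 17, Junb in 15 and Nr4a1 in 11. Npas4 had a count in 6 cells and Arc in 4 (0, 4 and 0 in the runs 1 to 22, 57 to 74 and 94 to 96).

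Of 11 long noncoding RNAs, Malat1, Meg3, Snhg11 and Kcnq1ot1 were counted in every cell and all 4 hold a shared run. Rian and Miat, which also hold one, were counted in 34 and 21 cells, Mirg in 20 and Peg13 in 18. Neat1, with a shared run, a nuclear noncoding RNA whose gene lies beside Malat1, had a count in 2.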
